A study of Mus musculus with 12 samples.

Results

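Imprinted genes are read mainly from 1 parental allele, and 47 of them were followed in the testes of male C57BL/6 mice at 4 ages: 3 months (3M), 6 months (6M), 12 months (12M) and 18 months (18M), with 3 mice at each age and 1 library of total RNA per mouse. The mice were untreated and of wild type, and whether mice of the same age shared a litter is not known, so the p-values below cover the spread between these 12 animals only. The genes were chosen by name from the best known imprinted loci of the mouse, with earlier results of these data known. All 47 were found among the 31513 genes and unnamed loci of the transcript table. Their reads came from 154 transcripts, of which 107 matched a RefSeq transcript and 47 were assembled variants that share a splice junction with it. The 12 libraries held 50924104 to 71803379 reads, and the 47 genes together took 0.0971 to 0.11% of them. Levels between genes are compared below as FPKM (fragments scaled by transcript length and by library size) summed over the transcripts of a gene, and levels between mice as CPM (read counts scaled to a common library size, with TMM factors), each with its SD over 3 mice.

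Imprints are methyl groups on CpG dinucleotides at control regions, erased in the early germ cells of each generation and set again according to the sex of the animal. In the male germ line the paternal marks are set before birth, at the control regions of the H19-Igf2, Dlk1-Meg3 and Rasgrf1 loci among others, and they are kept through meiosis into sperm. Many of the genes act on fetal and placental growth: genes read from the paternal allele often promote it and genes read from the maternal allele often restrain it. A whole testis is a mixture of germ cells, Sertoli cells, Leydig cells and other somatic cells. All animals were inbred, so no sequence difference separates the alleles and every value is a total over both of them. In such bulk RNA, fewer cells of a type and less RNA per cell cannot be told apart.

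The levels of the imprinted genes spanned more than 4 orders of magnitude, and the gene at the top, Gnas, which encodes the stimulatory G protein alpha subunit, stood at a mean of 57.7 FPKM over 12 libraries (range 52.3 to 73.5). Of the 47 genes, 11 had a mean of 10 FPKM or more, 14 lay between 1 and 10, 15 between 0.1 and 1, and 7 under 0.1. Below Gnas came Commd1, a regulator of copper handling and membrane protein sorting, at 48.8 FPKM (42.95 to 54.1), and H13, the signal peptide peptidase, at 29.1 FPKM (22.01 to 40.3). Gnas was higher than Commd1, and Commd1 higher than H13, in 12 of 12 libraries.

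The next level held Cd81, a tetraspanin, at 22.3 FPKM, Trappc9, a subunit of the TRAPP trafficking complex, at 20.4 FPKM, and Copg2, a subunit of the COPI coat, at 17.97 FPKM. Their ranges of 17.3 to 34.3, 16.6 to 22.9 and 13.3 to 19.9 FPKM overlapped over the libraries. Within libraries Cd81 was higher than Trappc9 in 8 of 12, and each of them was higher than Copg2 in 11 of 12. Ube3a, a ubiquitin ligase, followed at 14.5 FPKM, Zdbf2, a zinc finger gene, at 13.9 FPKM, Slc22a18, a transporter of the organic cation family, at 10.98 FPKM and Asb4, a substrate adaptor of ubiquitin ligases, at 10.9 FPKM. Mcts2, an intronless copy of Mcts1 inside an intron of H13, had a mean of 15.3 FPKM but ranged from 1.63 to 32.3 FPKM between libraries. At the other end, 7 genes had too few reads to be tested. Phlda2 was counted in 10 of 12 libraries, Rtl1 in 10, Dio3 in 11, Calcr in 9, Zim1 in 6, Magel2 in 3 and Kcnk9 in 1, with at most 16 reads in any library. At this depth no difference in these 7 genes was detectable.

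**Figure D1:**
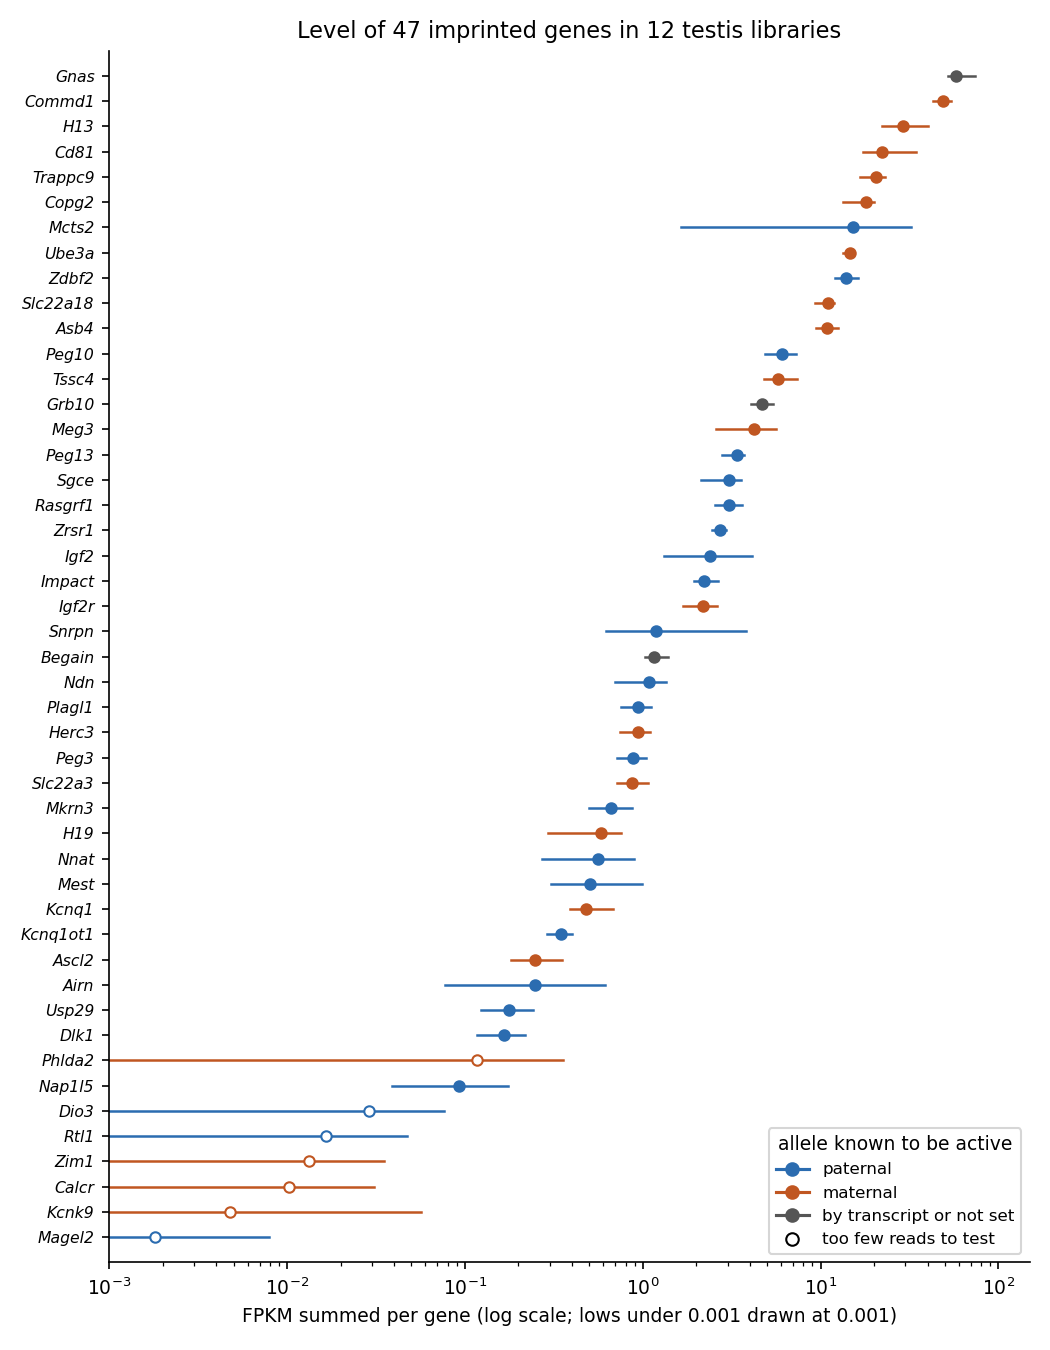
Each row is an imprinted gene on a log axis, with its mean FPKM over 12 libraries as a point. The line runs from the lowest to the highest library. Colours give the parental allele known to be active, which was not measured here, and open points mark the 7 genes that were not tested. Gnas and Commd1 lie highest, Mcts2 and Snrpn have the widest lines among the higher genes, and Magel2 is lowest.

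Igf2 was higher and Meg3, Grb10 and Herc3 were lower in the older mice, and none of the imprinted genes passed the threshold of the main test. A slope on age was fitted over the 12 libraries with edgeR's quasi-likelihood test, with p-values adjusted by the Benjamini-Hochberg method over all 24950 genes and loci tested. Of the 40 imprinted genes tested, 0 had an adjusted p of 0.05 or less, against 43 of 24950 (0.172%) over all genes. At an adjusted p of 0.1 or less, 2 of the 40 were reached, Meg3 and Igf2, against 0.533% of all genes. At an unadjusted p of 0.05 or less, 9 imprinted genes stood, which is 22.5% of the 40, beside 15.4% of all genes. Of these 9, 2 had higher levels with age (Igf2 and Usp29, 5% of the 40 beside 7.21% of all genes) and 7 had lower levels (Meg3, Grb10, Herc3, Peg10, Kcnq1ot1, Trappc9 and Ube3a, 17.5% beside 8.19%). The median slope of the 40 genes was -0.00111 log2 per month and that of all genes 0.000173, and 19 slopes lay above 0 and 21 below. DESeq2, a second count test, called 4 of the 40 by slope (Grb10, Herc3, Igf2 and Meg3) while it called 558 of 24950 genes in all.

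**Figure D2:**
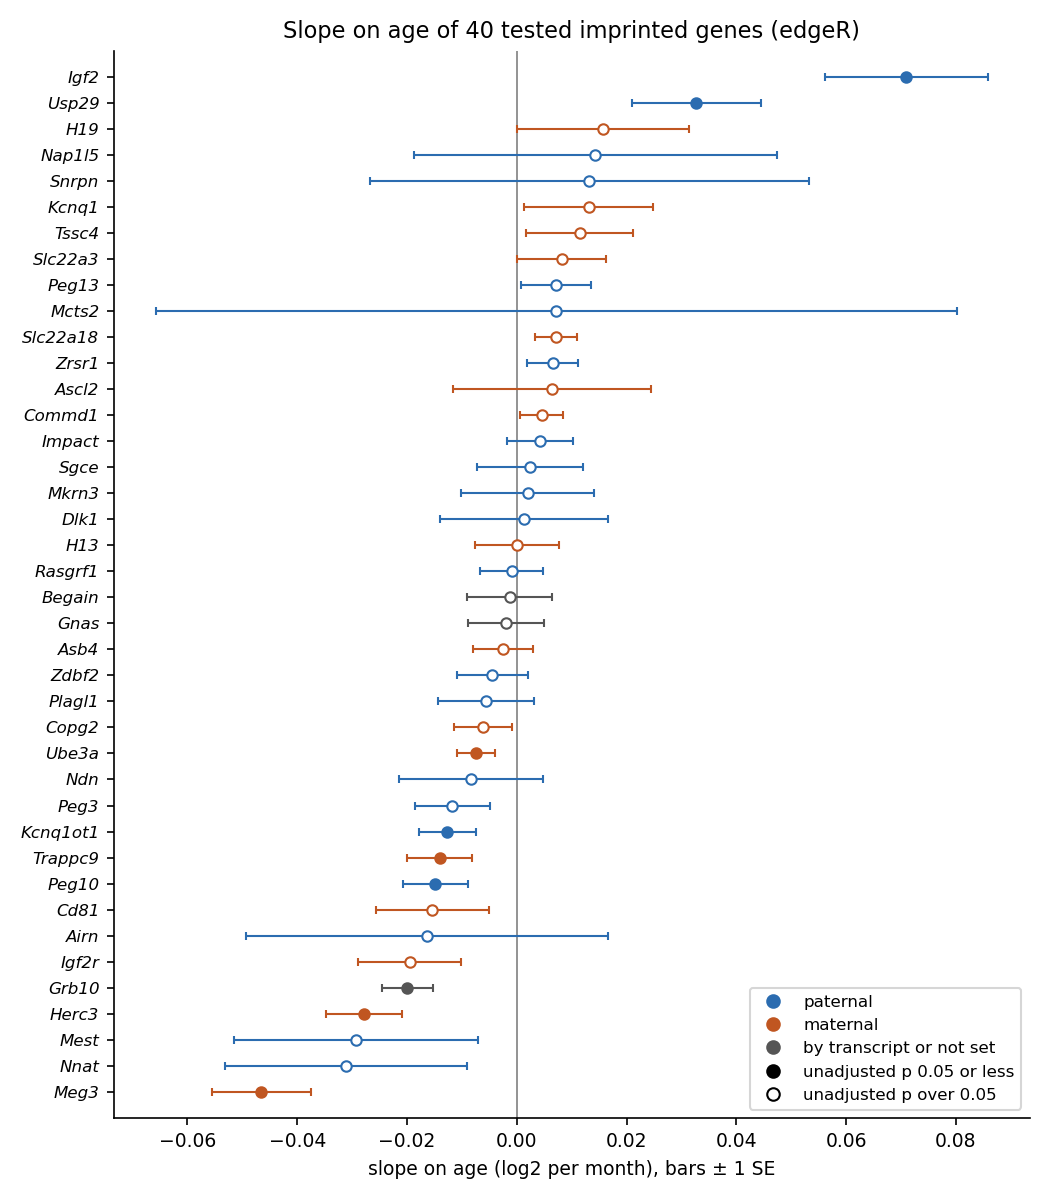
The slope on age (log2 per month, bars ± 1 SE) is drawn for the 40 imprinted genes that were tested. Colours give the parental allele known to be active, which was not measured here, and filled points have an unadjusted p of 0.05 or less. Igf2 stands alone at the top, Meg3 has the lowest slope, and most genes lie close to 0.

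With 18M set against 3M (6 libraries), edgeR called 0 of 40 imprinted genes beside 16 of 24605 genes (0.065%), 0 of 40 reached an adjusted p of 0.1 beside 0.0975%, and 7 of the 40 (17.5%) had an unadjusted p of 0.05 or less beside 12% of all genes. Among those 7, Igf2 was the gene with the higher level at 18M (2.5% beside 5.69%), and Grb10, Herc3, Meg3, Mest, Peg10 and Trappc9 had the lower level (15% beside 6.34%). DESeq2 called 3 of the 40 here (Grb10, Igf2 and Meg3), beside 296 of 24605 genes in all. In 9 of the 40 genes (22.5%) the 3 mice of 18M did not overlap the 3 mice of 3M, beside 19.7% of all genes: Igf2 lay above at 18M (2.5% beside 9.39%), and Meg3, Peg3, Peg10, Mest, Ube3a, Grb10, Kcnq1ot1 and Herc3 lay below (20% beside 10.3%). With a test for any difference between the 4 ages, edgeR called 0 of the 40 beside 0.0794% of all genes, and 5 had an unadjusted p of 0.05 or less (12.5% beside 9.04%). For this difference DESeq2 called 2 of the 40 (Igf2 and Meg3), beside 654 of 25204 genes in all.

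Igf2 encodes insulin-like growth factor 2, a fetal growth factor read from the paternal allele. Its level was 5.25, 5.58 and 5.28 CPM at 3M, 9.24, 8.02 and 11.3 at 6M, 10.3, 12.1 and 8.64 at 12M and 16.3, 12.96 and 10.5 at 18M. The 3 mice of 3M were all below each of the other 9 mice, while 6M, 12M and 18M overlapped. The means were 5.37 ± 0.184 CPM at 3M and 13.2 ± 2.92 at 18M (SD, n = 3 each), a ratio of 2.47. The log2 difference of 18M from 3M was 1.304 ± 0.16 (SE), with an unadjusted p of 0.000118 and an adjusted p of 0.112 by edgeR. Igf2 was the 1 imprinted gene of 40 past an unadjusted p of 0.05 with a log2 difference of 1 or more, beside 0.858% of all genes. Over all 4 ages it did not pass edgeR's threshold either (slope 0.071 log2 per month, SE 0.0149, unadjusted p = 0.000408, adjusted p = 0.0934). Without mouse 3 of 6M the adjusted p of the slope was 0.0347, and without mouse 3 of 18M the adjusted p of the 18M difference was 0.0427.

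The reads of Igf2 were split over transcripts with different first exons. 79.04% of them were given to transcripts that begin at base 142657496 of chromosome 7 (mm10, minus strand) and 18.9% to NM_010514, which begins at base 142658804. The first start had 5.15, 3.51 and 5.11 CPM at 3M, 7.07, 7.96 and 11.2 at 6M, 10.2, 8.56 and 5.401 at 12M and 16.2, 7.0 and 4.81 at 18M. The second had 0.0572, 2.07 and 0.174 CPM at 3M, 2.13, 0.0594 and 0.0878 at 6M, 0.102, 3.49 and 1.28 at 12M and 0.05302, 5.92 and 5.66 at 18M. At either start alone 3M and 18M overlapped. Mice 2 and 3 of 18M were the highest at the second start and mouse 1 of 18M was the lowest there, while that mouse was the highest at the first start. The start regions are shown because they carry this split; each runs from 250 bases before to 50 after a RefSeq start (GRCm38.p6), 5′ to 3′ on the strand of the gene, with every CpG dinucleotide, the site at which imprints are placed, in capitals.
Igf2, main start, chr7:142657447-142657746 (minus strand): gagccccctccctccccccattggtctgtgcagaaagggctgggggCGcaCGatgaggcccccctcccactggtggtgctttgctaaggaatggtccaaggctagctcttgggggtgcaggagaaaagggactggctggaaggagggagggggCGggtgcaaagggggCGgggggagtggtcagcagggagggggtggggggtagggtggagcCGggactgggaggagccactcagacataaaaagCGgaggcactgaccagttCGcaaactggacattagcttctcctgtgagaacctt
Igf2, NM_010514 start, chr7:142658755-142659054 (minus strand): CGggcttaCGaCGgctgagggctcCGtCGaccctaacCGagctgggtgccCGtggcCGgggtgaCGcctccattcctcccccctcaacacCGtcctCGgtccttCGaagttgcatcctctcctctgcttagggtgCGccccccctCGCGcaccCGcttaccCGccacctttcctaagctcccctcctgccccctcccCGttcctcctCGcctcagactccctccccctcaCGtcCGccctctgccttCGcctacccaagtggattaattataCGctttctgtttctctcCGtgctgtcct
The first of these windows holds 7 CpG dinucleotides and the second 24, beside a median of 17 over the 59 windows of the 38 imprinted genes that had one and a median of 7 over all 32851 windows. Neither holds TGCCGC, the letters that the imprint-keeping protein ZFP57 recognises when methylated, on either strand. TGCCGC was found in 15 of the 59 windows (25.4%) and in 11.6% of all windows, and some of the 59 overlap each other. The letters GGGCGG, which like TGCCGC include a CpG, were in 54.2% of the 59 and 35.7% of all windows. The part of the higher CpG content in these shares was not tested. The windows were taken as start regions, and control regions as such were not searched.

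H19, a noncoding RNA read from the maternal allele that shares its control region with Igf2, stayed low at 1.26, 1.49 and 1.37 CPM at 3M, 1.83, 0.733 and 1.26 at 6M, 1.86, 1.59 and 1.26 at 12M and 1.52, 1.44 and 1.63 at 18M. The ages overlapped, and the lowest and the highest mouse of 6M spanned nearly the whole range. Igf2r, the receptor that takes IGF2 up for degradation, had 18.98, 24.9 and 20.4 CPM at 3M, 24.2, 23.6 and 20.4 at 6M, 20.2, 24.6 and 15.9 at 12M and 20.3, 17.3 and 16.5 at 18M. Its mean was 21.4 ± 3.08 CPM at 3M and 18.02 ± 2.01 at 18M (SD, n = 3 each), 3M and 18M overlapped, and the slope had an unadjusted p of 0.0594. Airn, the antisense RNA that silences Igf2r on the paternal allele in most tissues, was close to the floor, with 8 to 27 reads per library or 0.248, 0.211 and 0.174 CPM at 3M, 0.158, 0.535 and 0.193 at 6M, 0.169, 0.318 and 0.379 at 12M and 0.194, 0.246 and 0.125 at 18M. Slc22a3, a cation transporter of the same cluster on chromosome 17, ranged from 2.73 to 4.02 CPM, and the ages overlapped.

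**Figure D3:**
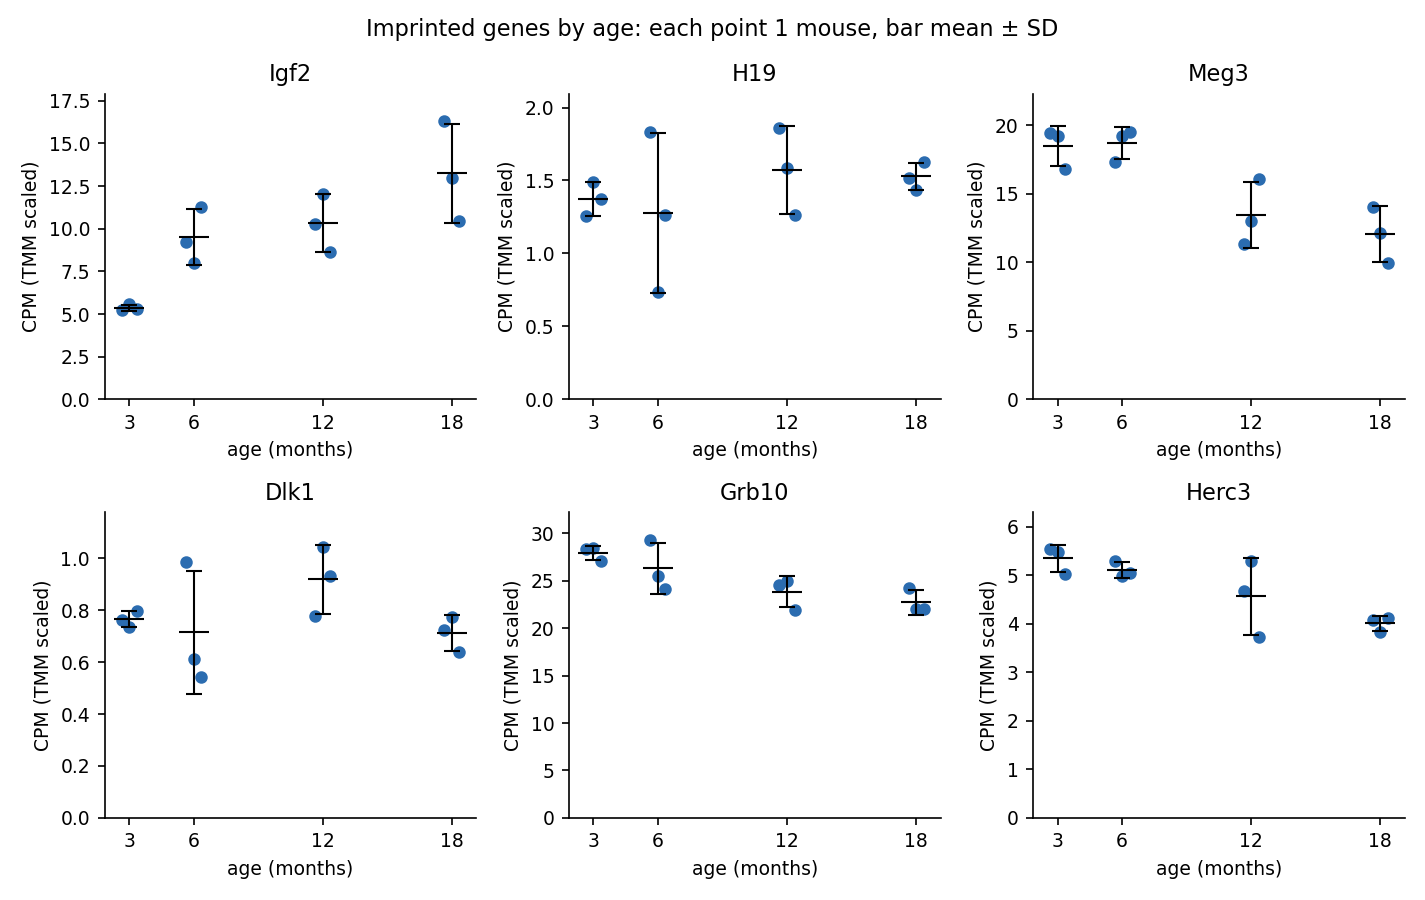
Points are single mice and bars the mean ± SD of 3 mice, in TMM-scaled CPM against age in months, for Igf2, H19, Meg3, Dlk1, Grb10 and Herc3. The mice of 3M lie lowest for Igf2, the mice of 18M lie below those of 3M for Meg3, Grb10 and Herc3, and 3M and 18M overlap for H19 and Dlk1.

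Meg3 is a noncoding RNA read from the maternal allele of the Dlk1-Dio3 cluster on chromosome 12. Its level was 19.4, 19.2 and 16.8 CPM at 3M, 17.4, 19.2 and 19.5 at 6M, 11.3, 13.01 and 16.1 at 12M and 14.1, 12.2 and 9.97 at 18M. Each mouse of 18M was below each mouse of 3M and 6M, and each mouse of 12M was below each mouse of 3M and 6M. The means were 18.5 ± 1.46 CPM at 3M and 12.1 ± 2.05 at 18M (SD, n = 3 each), a log2 difference of -0.61 ± 0.14 (SE). Meg3 had the smallest p of the 40 imprinted genes by slope and was not called (slope -0.0465 log2 per month, SE 0.00906, unadjusted p = 0.000208, adjusted p = 0.0701). Without mouse 1 of 18M the adjusted p was 0.0311, so whether Meg3 is called depends on that library. Summed markers of Leydig and stromal cells were lower in the mice of 12M and 18M too, though not library by library. Mouse 3 of 12M had the highest Meg3 of its age but the lowest Leydig and stromal sums of its age. The summed level of 8 Leydig cell markers, all 8 detected, was 838 to 1000.0 CPM in the mice of 3M and 796 to 1283 in those of 6M, against 622 to 664 in those of 12M and 544 to 749.9 in those of 18M, and 7 of the 8 had a lower level with age at an unadjusted p of 0.05 or less. Hsd3b1 did not (unadjusted p of the slope by edgeR 0.895). The summed level of 6 stromal fibroblast markers, all 6 detected, was 41.1 to 60.96 CPM in the mice of 3M and 37.05 to 42.5 in those of 6M, against 25.6 to 28.7 in those of 12M and 22.4 to 32.7 in those of 18M. Of these 6, Pdgfra, Col1a1, Col1a2 and Col3a1 had a lower level with age at an unadjusted p of 0.05 or less. Tcf21 and Igfbp3 did not (unadjusted p of the slope by edgeR 0.981 and 0.258). Macrophage markers summed to 74.5 ± 2.63 CPM at 3M and 69.05 ± 3.22 at 18M (SD, n = 3 each), with overlapping mice. The part of Leydig, stromal and other cells in the level of Meg3 was not tested.

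73.5% of the Meg3 reads were given to transcripts that begin at base 109545397 of chromosome 12 (plus strand), and 26.5% to transcripts that begin at base 109540996, the start usually drawn for the gene. The downstream start had 14.2, 14.8 and 12.6 CPM at 3M, 13.1, 13.3 and 13.7 at 6M, 8.37, 9.57 and 12.00 at 12M and 10.3, 9.37 and 7.11 at 18M. The upstream start had 5.27, 4.41 and 4.24 CPM at 3M, 4.28, 5.94 and 5.83 at 6M, 2.96, 3.44 and 4.09 at 12M and 3.75, 2.82 and 2.86 at 18M. At both starts the 3 mice of 18M lay below the 3 mice of 3M, as for the gene sum. Assembled transcript MSTRG.4779.6, from the downstream start, held 70.8% of all Meg3 reads (slope -0.0495 log2 per month, SE 0.0099, unadjusted p = 0.000381, adjusted p = 0.344). With RefSeq-matching transcripts alone, which leave it out, the slope of Meg3 had an adjusted p of 0.794. The start regions of Meg3 differ in CpG content, with 13 CpG dinucleotides upstream and 1 downstream.
Meg3, upstream start, chr12:109540746-109541045 (plus strand): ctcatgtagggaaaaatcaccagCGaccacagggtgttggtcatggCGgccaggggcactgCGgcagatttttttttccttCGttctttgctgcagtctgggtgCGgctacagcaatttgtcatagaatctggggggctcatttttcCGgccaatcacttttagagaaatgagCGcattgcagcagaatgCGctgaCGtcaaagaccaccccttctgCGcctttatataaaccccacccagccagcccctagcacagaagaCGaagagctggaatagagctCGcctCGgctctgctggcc
Meg3, downstream start, chr12:109545148-109545447 (plus strand): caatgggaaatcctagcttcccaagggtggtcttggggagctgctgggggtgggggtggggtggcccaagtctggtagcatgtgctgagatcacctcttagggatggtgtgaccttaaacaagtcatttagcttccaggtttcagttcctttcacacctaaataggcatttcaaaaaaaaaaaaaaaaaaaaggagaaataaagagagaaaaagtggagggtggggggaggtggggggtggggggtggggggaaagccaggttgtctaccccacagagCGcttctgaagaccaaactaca
The upstream window holds both TGCCGC, searched on both strands, and the TATA box letters TATAAA, which were found in 13.6% of all windows. The downstream window holds neither.

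In the same cluster, Dlk1, a membrane protein of the Notch ligand type read from the paternal allele, had 0.763, 0.737 and 0.799 CPM at 3M, 0.985, 0.614 and 0.545 at 6M, 0.779, 1.05 and 0.932 at 12M and 0.725, 0.776 and 0.6396 at 18M. 3M and 18M overlapped, the mice of 12M lay above those of 18M, and the slope had an unadjusted p of 0.935. Begain, a gene first known from synapses, ranged from 2.98 to 3.98 CPM, likewise with overlap (unadjusted p = 0.868). Rtl1, derived from a retrotransposon and needed in the placenta, and Dio3, the deiodinase that inactivates thyroid hormone, were among the genes with too few reads to test.

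Grb10 encodes an adaptor that dampens signalling from the insulin and IGF1 receptors. Its level was 28.3, 28.5 and 27.1 CPM at 3M, 29.3, 25.5 and 24.1 at 6M, 24.6, 25.00 and 21.9 at 12M and 24.3, 22.00 and 21.98 at 18M. All mice of 18M lay below those of 3M, and the means were 27.96 ± 0.743 and 22.8 ± 1.32 CPM (SD, n = 3 each), a ratio of 1.23. The gene was not called by edgeR (slope -0.0199 log2 per month, SE 0.00472, unadjusted p = 0.00105, adjusted p = 0.128). Its transcripts differ in their first exon, and the parental allele read depends on the tissue and on the promoter. NM_010345, from the upstream start at base 12037420 of chromosome 11, held 50.2% of the reads, MSTRG.2512.3 from base 11957497 held 26.9% and MSTRG.2512.4 from base 12026184 held 22.8%. MSTRG.2512.3 had 4.96, 1.895 and 7.42 CPM at 3M, 5.104, 3.23 and 4.27 at 6M, 14.99, 4.88 and 6.98 at 12M and 7.92, 7.26 and 9.996 at 18M, higher in mean at 18M than at 3M with overlapping mice, and was not called (slope 0.0719 log2 per month, SE 0.0324, unadjusted p = 0.0479, adjusted p = 0.71). MSTRG.2512.4 had 8.24, 23.9 and 3.04 CPM at 3M, 7.88, 5.74 and 4.53 at 6M, 2.73, 2.597 and 2.97 at 12M and 2.35, 3.18 and 2.68 at 18M. Its mice of 12M and 18M, with the exception of mouse 2 of 18M at 3.18 CPM, lay below every mouse of 3M and 6M, and the value of mouse 2 of 3M was high while that mouse was low for NM_010345 at 2.40 CPM against 15.1 and 16.6 in the other mice of 3M. MSTRG.2512.4, with a slope of the opposite sign, was not called either (slope -0.138 log2 per month, SE 0.0363, unadjusted p = 0.00283, adjusted p = 0.491). With RefSeq-matching transcripts alone the log2 difference of 18M from 3M in Grb10 was 0.01 (adjusted p = 0.997), a value that includes the low NM_010345 of mouse 2 of 3M, and the cause of this reversal was not tested.

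The Peg3 cluster on chromosome 7 held a pair of genes with opposite signs that share a promoter region. Peg3, a zinc finger protein read from the paternal allele, had 6.41, 6.55 and 5.96 CPM at 3M, 6.37, 6.81 and 7.26 at 6M, 6.72, 6.35 and 5.02 at 12M and 5.603, 5.88 and 5.94 at 18M. Its mice of 18M lay just below those of 3M, and the slope had an unadjusted p of 0.113. Usp29, a deubiquitinase that starts beside Peg3 on the opposite strand, had 1.07, 1.51 and 1.01 CPM at 3M, 1.48, 1.35 and 1.07 at 6M, 1.69, 1.63 and 1.44 at 12M and 1.94, 1.32 and 1.696 at 18M. Its means were 1.195 ± 0.274 CPM at 3M and 1.66 ± 0.312 at 18M (SD, n = 3 each) with overlapping mice, and it was not called (slope 0.0327 log2 per month, SE 0.0118, unadjusted p = 0.0158, adjusted p = 0.232). 33.5% of the exonic bases of Usp29 are also exonic in Zim3 on the opposite strand, which had 1264 reads against 984 for Usp29, and the library kit did not mark the strand, so the reads of this stretch cannot be told apart.

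On chromosome 6, Peg10, a protein derived from a retrotransposon and essential in the placenta, had 44.9, 45.3 and 43.5 CPM at 3M, 44.5, 45.5 and 49.8 at 6M, 42.8, 44.3 and 33.6 at 12M and 42.1, 36.9 and 39.9 at 18M. The mice of 18M lay below those of 3M by a small margin, 44.6 ± 0.947 against 39.6 ± 2.63 CPM (SD, n = 3 each), and the gene was not called (slope -0.0148 log2 per month, SE 0.0059, unadjusted p = 0.0262, adjusted p = 0.267). Its neighbour Sgce, a sarcoglycan that shares its promoter region, ranged from 3.901 to 6.58 CPM and Asb4 from 44.7 to 56.8, both with 3M and 18M overlapping. Mest, a hydrolase-like gene read from the paternal allele, had 1.18, 1.69 and 1.81 CPM at 3M, 1.14, 1.39 and 1.599 at 6M, 1.05, 1.31 and 2.73 at 12M and 1.04, 0.851 and 1.15 at 18M. The mice of 18M lay below those of 3M, mouse 3 of 12M was the highest, and the slope had an unadjusted p of 0.211. Copg2, which meets Mest at its 3′ end, had 80.2, 84.6 and 81.2 CPM at 3M, 89.3, 86.7 and 84.1 at 6M, 83.97, 85.1 and 65.9 at 12M and 78.6, 76.3 and 83.5 at 18M. Mouse 3 of 12M was the lowest here, and 3M and 18M overlapped. The pair shares 913 exonic bases on opposite strands, which is 32.9% of the exonic bases of Mest, and Copg2 had 55571 reads against 973 for Mest over the 12 libraries, so the low counts of Mest are uncertain.

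The Kcnq1 cluster on chromosome 7 is silenced on the paternal allele by Kcnq1ot1, a long unspliced RNA that runs against Kcnq1. Kcnq1ot1 had 31.7, 32.7 and 32.3 CPM at 3M, 35.6, 34.4 and 29.4 at 6M, 29.8, 31.3 and 28.2 at 12M and 31.4, 29.9 and 25.7 at 18M. Each mouse of 18M lay below those of 3M, by 1.11 times in the mean, and the gene was not called (slope -0.0126 log2 per month, SE 0.0052, unadjusted p = 0.0308, adjusted p = 0.279). Its 83437 bases lie within Kcnq1, on the opposite strand, so unspliced Kcnq1 RNA and Kcnq1ot1 cannot be told apart without strand. Kcnq1, a potassium channel subunit, ranged from 1.27 to 2.18 CPM with 3M and 18M overlapping. Cd81 had 34.7, 35.04 and 34.7 CPM at 3M, 36.8, 37.2 and 54.8 at 6M, 33.8, 32.5 and 34.9 at 12M and 35.9, 34.6 and 28.1 at 18M. Mouse 3 of 6M was far above the others and mouse 3 of 18M the lowest. Slc22a18 had 23.9, 27.9 and 25.4 CPM at 3M, 24.9, 25.7 and 24.3 at 6M, 26.8, 24.9 and 27.6 at 12M and 27.4, 27.6 and 26.97 at 18M, with 3M and 18M overlapping. Tssc4, a splicing-related protein, ranged from 9.13 to 15.6 CPM, lowest in mice 2 and 3 of 12M and highest in mice 2 and 3 of 18M, with an unadjusted p of 0.0186 and an adjusted p of 0.475 for any difference between the ages. Ascl2, a transcription factor of the placenta, had at most 0.617 CPM.

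In the Snrpn-Ube3a cluster, also on chromosome 7, Ube3a had 77.01, 74.4 and 77.1 CPM at 3M, 76.3, 78.8 and 72.8 at 6M, 71.6, 73.3 and 64.3 at 12M and 70.9, 71.3 and 72.9 at 18M. It was the steadiest of the 40 genes between mice of the same age, with a median within-age coefficient of variation of 2.98%, and its mice of 18M lay below those of 3M by 1.06 times in the mean (unadjusted p of the slope 0.0496). Snrpn, a core protein of the spliceosome read from the paternal allele, had 1.62, 1.56 and 2.501 CPM at 3M, 1.52, 1.76 and 8.35 at 6M, 1.54, 2.39 and 1.69 at 12M and 2.42, 2.04 and 5.13 at 18M. Mouse 3 of 6M and mouse 3 of 18M were far above the other 10 mice, which ranged from 1.52 to 2.50 CPM. 64.5% of the exonic bases of Snrpn are also exonic in Snhg14, a long host RNA of small nucleolar RNAs on the same strand with 9432 reads, so the split between them is uncertain. Ndn, of the MAGE family, ranged from 1.24 to 2.35 CPM and Mkrn3, a ring finger ubiquitin ligase tied to the timing of puberty, from 1.36 to 2.35, with 3M and 18M overlapping in both. Magel2 of the same cluster had 6 reads in all 12 libraries together.

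Several imprinted genes are intronless copies that sit inside a host gene. Herc3, a ubiquitin ligase that hosts Nap1l5, had 5.55, 5.47 and 5.04 CPM at 3M, 5.301, 4.99 and 5.04 at 6M, 4.67, 5.31 and 3.73 at 12M and 4.08, 3.84 and 4.12 at 18M. The mice of 18M lay below those of 3M, at 4.01 ± 0.1502 against 5.36 ± 0.278 CPM (SD, n = 3 each), a ratio of 1.33, and the gene was not called by edgeR (slope -0.0278 log2 per month, SE 0.00684, unadjusted p = 0.00139, adjusted p = 0.133). Nap1l5 itself was near the floor, with 4 to 20 reads per library. Commd1, the host of Zrsr1, had 41.2, 39.7 and 40.4 CPM at 3M, 39.02, 39.5 and 38.6 at 6M, 40.6, 36.3 and 42.7 at 12M and 41.8, 39.6 and 44.7 at 18M. Zrsr1, a splicing factor read from the paternal allele, ranged from 11.8 to 14.1 CPM. In both, 3M and 18M overlapped.

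H13 and its guest Mcts2 gave the widest disagreement between mice. H13 had 84.03, 114 and 85.9 CPM at 3M, 106, 104 and 113 at 6M, 91.4, 106 and 96.5 at 12M and 108, 106 and 86.3 at 18M. Mcts2, at chromosome 2, 152687148 to 152687942, had 25.4, 2.02 and 26.5 CPM at 3M, 2.44, 4.59 and 2.39 at 6M, 25.8, 3.35 and 26.99 at 12M and 1.396, 7.98 and 26.9 at 18M. The values of Mcts2 lay in separate ranges, with 5 mice at 25.4 to 27.0 CPM and 7 mice at 1.40 to 7.98 CPM, and both kinds occurred at 3M, 12M and 18M. Next to the Mcts2 row stand 3 assembled transcripts named H13 that begin at the same base, and they had 20.3, 68.6 and 14.9 CPM at 3M, 44.7, 38.2 and 43.6 at 6M, 29.1, 43.1 and 33.2 at 12M and 38.2, 48.5 and 17.7 at 18M. Summed, the 4 transcripts from that base had 45.7, 70.6 and 41.4 CPM at 3M, 47.1, 42.8 and 45.96 at 6M, 54.97, 46.5 and 60.2 at 12M and 39.6, 56.5 and 44.7 at 18M. The sum differed by 1.78 times between the lowest and the highest mouse, where the Mcts2 row alone differed by 19.3 times, and all exonic bases of Mcts2 are shared with these transcripts. The row named Mcts2 therefore does not measure the gene by itself, and the H13 sum includes reads from its start.

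Short H13 transcripts, which end before the Mcts2 start and are known from the paternal allele, where transcription of Mcts2 is active, showed the smallest p of all imprinted transcripts. NM_001159553, from 152669461 to 152685146 on chromosome 2, had 8.05, 8.95 and 6.29 CPM at 3M, 8.53, 5.74 and 5.54 at 6M, 4.18, 5.699 and 3.14 at 12M and 2.12, 2.59 and 2.99 at 18M. The mice of 18M lay below every mouse of 3M, 6M and 12M, and the mice of 12M below every mouse of 3M. Its means were 7.76 ± 1.35 CPM at 3M and 2.57 ± 0.435 at 18M (SD, n = 3 each), a ratio of 3.02, and it held 5.23% of the H13 reads. It was not called among 56784 transcripts (slope -0.107 log2 per month, SE 0.0161, unadjusted p = 3.43e-05, adjusted p = 0.13). The other short transcript, NM_001159552, had 1.53, 2.12 and 2.38 CPM at 3M, 1.26, 1.802 and 2.55 at 6M, 2.24, 2.504 and 1.64 at 12M and 1.41, 1.99 and 1.696 at 18M, with overlap, while the transcripts that run from the H13 start past Mcts2 had 54.2, 34.6 and 62.4 CPM at 3M, 51.8, 58.2 and 61.5 at 6M, 55.9, 54.5 and 58.5 at 12M and 66.01, 52.7 and 63.8 at 18M. The start regions of host and guest are shown because the H13 transcripts differ by where they stand to the Mcts2 start.
H13, chr2:152669211-152669510 (plus strand): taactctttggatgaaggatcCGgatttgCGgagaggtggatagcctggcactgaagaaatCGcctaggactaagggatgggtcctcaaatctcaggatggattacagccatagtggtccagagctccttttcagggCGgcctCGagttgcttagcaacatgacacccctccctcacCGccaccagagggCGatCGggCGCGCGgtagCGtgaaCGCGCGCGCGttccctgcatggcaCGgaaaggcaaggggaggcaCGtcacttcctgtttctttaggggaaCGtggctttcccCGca
Mcts2, chr2:152686898-152687197 (plus strand): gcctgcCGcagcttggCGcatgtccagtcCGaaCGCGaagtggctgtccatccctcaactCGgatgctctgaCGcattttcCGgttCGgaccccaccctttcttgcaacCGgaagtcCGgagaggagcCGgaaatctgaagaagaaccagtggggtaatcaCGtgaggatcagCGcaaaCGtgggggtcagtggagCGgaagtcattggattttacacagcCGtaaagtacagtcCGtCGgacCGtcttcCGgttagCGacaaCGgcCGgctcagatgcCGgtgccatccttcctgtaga
The windows hold 21 and 25 CpG dinucleotides. TGCCGC is found in that of Mcts2 and not in that of H13.

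**Figure D4:**
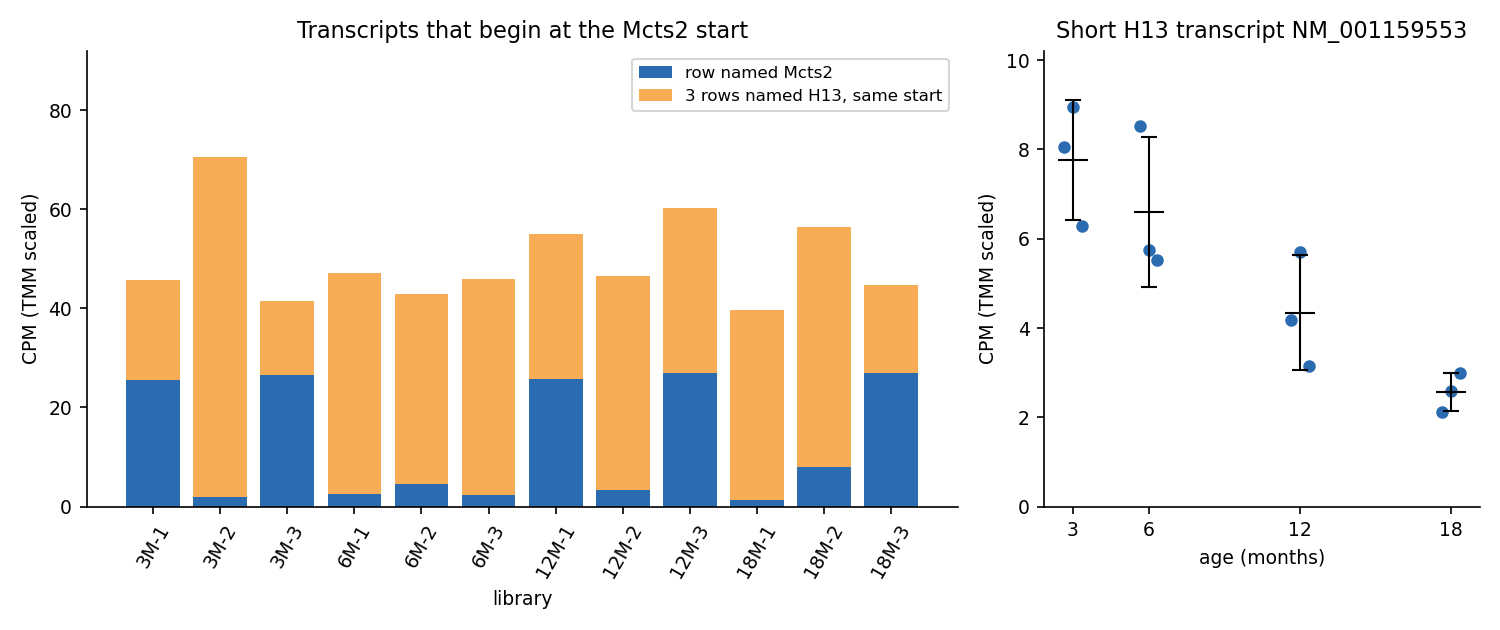
Left, stacked bars give for each library the TMM-scaled CPM of the row named Mcts2 and of the 3 rows named H13 that begin at the same base; right, points are single mice and bars the mean ± SD for the short H13 transcript NM_001159553 against age. The blue part, the row named Mcts2, lies between 1.40 and 27.0 CPM while the full bars stay between 39.6 and 70.6, and the short transcript is lowest in the 3 mice of 18M.

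Over all transcripts of the imprinted genes, edgeR called 0 of 111 by slope, beside 5 of 56784 (0.00881%), and 8 (7.21%) had an unadjusted p of 0.05 or less beside 6.99% of all transcripts. DESeq2 called 4 of the 111 (the short H13 transcript, MSTRG.4779.6 of Meg3, MSTRG.2512.4 of Grb10 and the transcript of Herc3) and 823 of 56784 in all. Transcripts were less steady than gene sums. In the 20 imprinted genes with 2 or more transcripts that each held 10% or more of the reads, the median within-age coefficient of variation was 7.98% for the gene sum and 32.9% for its leading transcript, which was the more variable of the pair in 19 of the 20. Gnas is one of the 20. Its reads lay by 67.3% on transcripts from bases 174330070 to 174330089 of chromosome 2, the start of the common Gs alpha form, by 14.8% on NM_001310083 from base 174327768 and by 14.7% on an assembled form from base 174343661, while the most upstream start, the maternal NESP55 form, had a mean of 0.869 CPM. The gene sum was 107, 110.0 and 114 CPM at 3M, 111, 113 and 147 at 6M, 120.4, 118 and 133 at 12M and 107, 114 and 110.5 at 18M. Mouse 3 of 6M was the highest, mouse 3 of 12M the next, and the others lay within 107 to 120 CPM.

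Zdbf2, read from the paternal allele under the control of a far upstream start, had 145, 125 and 135 CPM at 3M, 144, 141 and 138 at 6M, 146, 141 and 157 at 12M and 117, 117 and 149 at 18M as a gene sum. The ages overlapped. The starts at bases 63273269, 63247726 and 63247835 to 63247902 of chromosome 1 held 38.5%, 28.4% and 24.3% of the reads, but single forms varied widely between mice: MSTRG.361.9 had 0, 94.4 and 0 CPM at 3M, 0, 0 and 0 at 6M, 0, 0 and 0 at 12M and 73.5, 0 and 2.27 at 18M, so 2 mice of different ages held nearly all of its reads. Trappc9 had 85.3, 94.8 and 95.9 CPM at 3M, 94.6, 95.2 and 85.8 at 6M, 81.95, 94.3 and 70.1 at 12M and 87.9, 79.3 and 76.1 at 18M. The mice of 18M overlapped those of 3M, and the gene was not called (slope -0.014 log2 per month, SE 0.00586, unadjusted p = 0.0326, adjusted p = 0.286). With RefSeq-matching transcripts alone its slope was 0.00276 log2 per month, of the opposite sign. Peg13, a noncoding RNA inside an intron of Trappc9, ranged from 14.1 to 18.7 CPM with overlap. The last genes stand alone or in small loci. Plagl1, a zinc finger factor, ranged from 4.33 to 6.16 CPM, Rasgrf1, an exchange factor for Ras proteins, from 10.1 to 12.6, Impact, a regulator of the GCN2 kinase, from 7.17 to 9.52, and Nnat, a small membrane protein of neurons and islets, from 0.369 to 1.19. All 4 overlapped between 3M and 18M.

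Grouped by the allele known to be active, 21 of 24 paternally read genes and 16 of 20 maternally read genes were tested. These labels come from what is known of the loci, and which allele was read in the testis was not measured. Among the paternal genes 2 had an unadjusted p of 0.05 or less with higher levels and 2 with lower levels, and the median slope was 0.00128 log2 per month. Among the maternal genes 0 had higher and 4 lower levels, with a median slope of -0.00121. Grouped by role, the 5 noncoding RNAs held 2 with lower levels (Meg3 and Kcnq1ot1), the 5 genes of the ubiquitin system 2 with lower and 1 with higher levels (Ube3a, Herc3 and Usp29), the 7 tested growth and signalling genes 1 of each (Grb10 and Igf2), and the 9 genes of splicing, translation and trafficking 1 with lower levels (Trappc9). The 1 tested gene derived from a retrotransposon (Peg10) had lower levels, and the 5 tested transcription and zinc finger genes and the 5 tested channels and transporters held 0. All of these counts are at an unadjusted p of 0.05 or less, beside 7.21% of all genes with higher and 8.19% with lower levels. With both directions together, the share was 19% of the paternal and 25% of the maternal genes, beside 15.4% of all genes. By role it was 40% of the noncoding RNAs, 60% of the ubiquitin genes, 28.6% of the growth genes and 11.1% of the splicing, translation and trafficking genes. The role groups are small, so single genes move these shares.

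Single libraries stood apart for some of these genes. Mouse 3 of 6M had the highest sums of Leydig markers (1283 CPM against 544 to 1000.0 in the other 11) and of 8 Sertoli cell markers (1196 against 898 to 969.9), and it was also the highest mouse for 9 of the 40 tested genes: Cd81, Gnas, Snrpn, Peg10, Peg3, Meg3, Impact, Ndn and Nap1l5. That is 22.5% of the 40, beside 12.9% of all 24950 genes tested, and mouse 3 of 12M, the highest mouse for more genes than any other (14.8%), was the highest for 6 of the 40. Mouse 3 of 12M was also the lowest mouse for Grb10 (21.95 CPM), Herc3 (3.73), Peg10 (33.6), Trappc9 (70.1) and Ube3a (64.3). These genes are among those with lower levels with age. Peg3, Copg2, Igf2r and Tssc4 were lowest in that mouse too, and no share over all genes is given. Mouse 3 of 18M, the other mouse high for Snrpn, had 544 CPM of Leydig markers and 911 of Sertoli markers, inside or below the range of the rest. The part of these cell types in the levels was not tested. Round spermatid markers, 5 of 5 detected, summed to 786 to 951 CPM at 3M and 1035 to 1054 at 18M, spermatocyte markers to 1084 to 1164 over all libraries and elongating spermatid markers to 12490.0 to 18440.0. The highest elongating spermatid sum was that of mouse 3 of 12M. Markers of spermatogonia summed to 108 to 126 CPM, of peritubular myoid cells to 60.5 to 92.2, of the endothelium to 27.6 to 35.96 and of macrophages to 63.2 to 83.2. Markers of epididymal epithelium, the neighbouring tissue, summed to 3.97 to 5.005 CPM in every library, with Lcn5 at 0 reads.

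**Figure D5:**
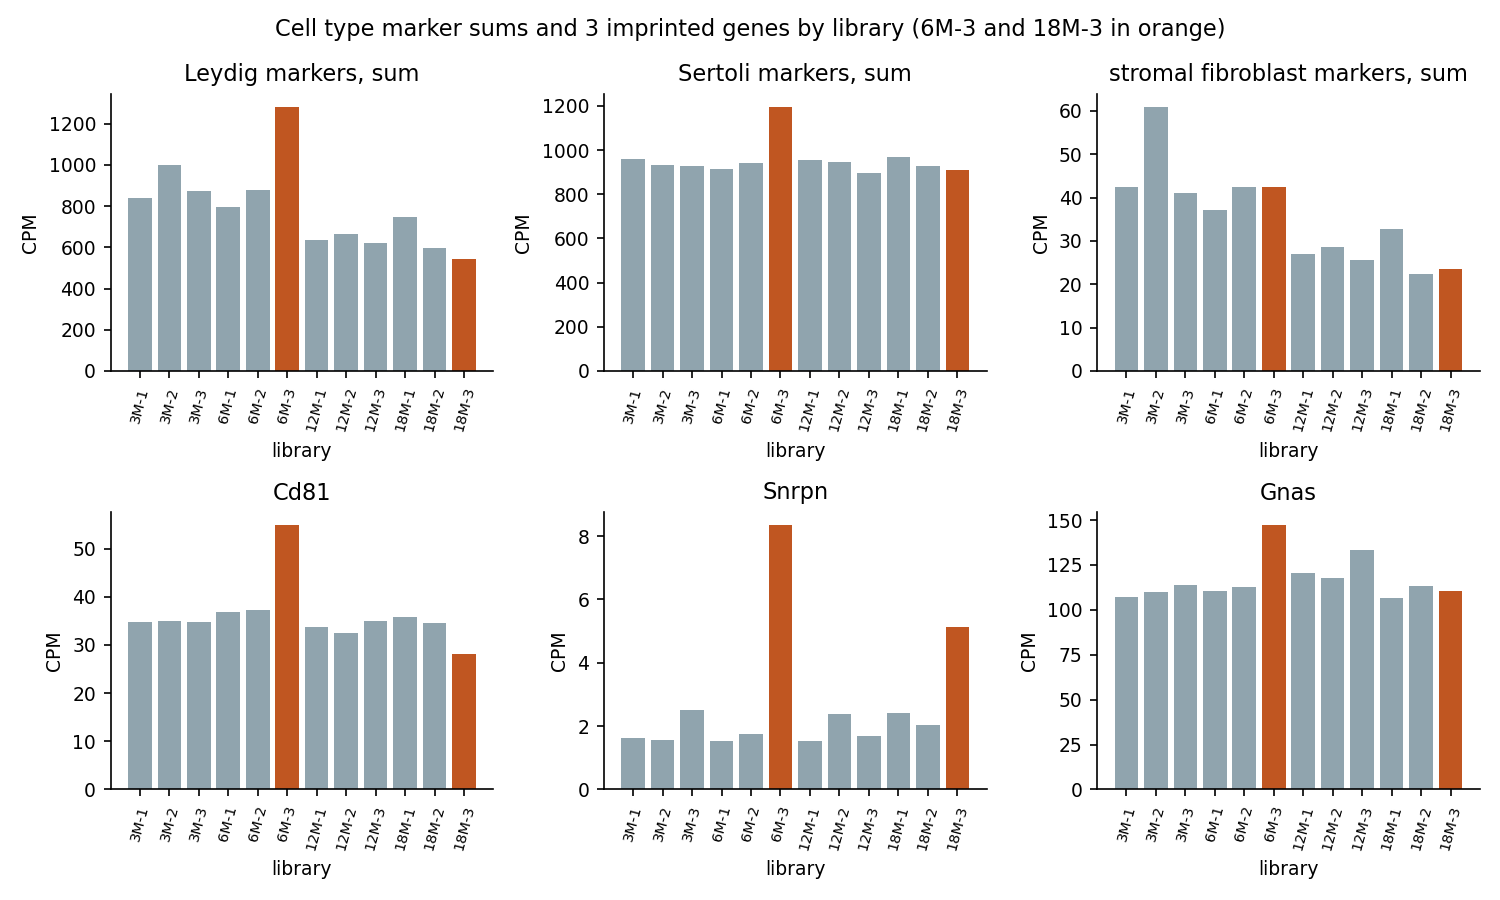
Bars give TMM-scaled CPM in each of the 12 libraries, for the sums of Leydig, Sertoli and stromal fibroblast markers and for Cd81, Snrpn and Gnas, with mouse 3 of 6M and mouse 3 of 18M in orange. Mouse 3 of 6M is highest in all panels but that of the fibroblast markers, and Snrpn is high in the orange libraries only.

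Beyond the 47 genes, 43 further imprinted or candidate imprinted genes were listed, of which 42 were in the table and 34 could be tested. Of these 34, 1 passed an adjusted p of 0.05 by slope, and 11 (32.4%) had an unadjusted p of 0.05 or less beside 15.4% of all genes, 1 with higher and 10 with lower levels. The called gene was Pon3, a lactonase, which fell from 3.64 ± 0.342 CPM at 3M to 1.75 ± 0.574 at 18M (SD, n = 3 each; slope -0.0792 log2 per month, SE 0.0127, adjusted p = 0.0325 by edgeR). Every mouse of 12M and 18M lay below every mouse of 3M and 6M for Pon3, as for the Leydig marker sum, whose part was not tested. DESeq2 also called Pon3 and no other gene of this list. The edgeR call held without mouse 3 of 6M, mouse 3 of 12M or mouse 1 of 18M (adjusted p 0.00161 to 0.0427). It was lost without each of the other 9 mice (adjusted p 0.0528 to 0.121) and with RefSeq-matching transcripts alone (adjusted p = 0.0859). Th, tyrosine hydroxylase, next to the Igf2 locus on chromosome 7, was the 1 gene with higher levels and was very low, at 0.131 ± 0.0526 CPM at 3M and 0.303 ± 0.1199 at 18M (unadjusted p = 0.0267, adjusted p = 0.268). Of 17 genes that set or keep imprints 16 could be tested, 0 passed by edgeR and 0 by DESeq2, and 4 (25%, beside 8.19% of all genes) had lower levels at an unadjusted p of 0.05 or less: Tet3, a 5-methylcytosine oxidase, Nsd1, a histone methyltransferase, Dnmt1, the maintenance DNA methyltransferase, and Smchd1, a chromatin silencing protein. Dnmt1 had 61.6 ± 6.12 CPM at 3M and 53.2 ± 4.33 at 18M (SD, n = 3 each), with overlapping mice and an unadjusted p of 0.0558 for 18M against 3M.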

How the data were processed

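Total RNA depleted of ribosomal RNA was sequenced by the authors from 12 testes with a kit that does not mark strand, aligned to mm10 with HISAT2, assembled and merged with StringTie (1.3.3b in the file headers) and classed against RefSeq with GffCompare. The deposited table gave, for each transcript, expected counts (whole-number read counts estimated by the authors from coverage) and FPKM values, scaled by the authors for transcript length and library size; neither had a further normalization between libraries. Here the expected counts of transcripts that match RefSeq or share junctions or exons with it (class codes =, c, j and o) were summed per gene, TMM-scaled and tested with edgeR 4.0.16 (R 4.3.3) after its filter on low counts: a slope on age in months (12 libraries), 18M against 3M (6 libraries), any difference between the ages, and the slope per transcript. Calls had an adjusted p of 0.05 or less (Benjamini-Hochberg over all features). Whole-number estimates were used as counts, so splits between transcripts of a gene carry error beyond counting. Alternatives were DESeq2 1.42.0, limma 3.58.1 on log2 FPKM, other scalings, filters and class codes, and each library left out. The script was tested on simulated counts. Start regions came from a RefSeq table (GRCm38.p6), in which 38 of the 47 genes were matched by symbol. Each library's values were given for the 8 genes with the smallest p of the slope, the 10 with the highest FPKM and 11 well known ones. The genes and lists were chosen with earlier results of these data known.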

Additional observations from a re-analysis of the deposited data

Results flagged for a closer look

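Transcripts that carry the name of an imprinted gene but lie within its introns, or on the opposite strand of its exons, were left out of the gene sums above and held reads. Zdbf2 had 14 intronic transcripts on the minus strand with a summed mean of 11.6 CPM (10.3 to 15.0 over the 12 libraries). Trappc9 had 1 with 4 exons at 1.02 CPM, with means of 0.861 ± 0.0414 CPM in the mice of 3M, 0.861 ± 0.107 in those of 6M, 0.949 ± 0.127 in those of 12M and 1.403 ± 0.0965 in those of 18M (SD, n = 3 each). Ube3a had 1 transcript opposite to its exons at 0.692 CPM, and Kcnq1 had 1 within an intron at 0.280 CPM. The intronic transcript of Meg3 had 0.00434 CPM, from 3 reads in all libraries. Test results for these transcripts are not given here, and the strand of such models comes from the assembly and not from the kit.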

How the results depend on the processing

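The 40 imprinted genes tested gave 0 calls by edgeR's slope, and 4 were called by DESeq2 (558 genes in all against 43), 2 at an adjusted p of 0.1 or less, and 0 to 1 without each library. For 18M against 3M the count was 0 by edgeR, 3 by DESeq2 (296 in all against 16), 1 with all 12 libraries in the fit (Igf2, adjusted p = 0.0307), 1 under the rule of an unadjusted p of 0.05 and a log2 difference of 1, and 0 to 1 without each library. For any difference DESeq2 called 2 (654 in all against 20) and for transcripts 4 (823 in all against 5). With RefSeq-matching transcripts alone, 38 imprinted genes were tested. Those at an unadjusted p of 0.05 or less went from 9 to 5 by slope and from 7 to 4 for 18M against 3M. Over all genes, such a p was reached by 3416 of 31214 by slope and 2493 of 30722 for 18M against 3M. The main tests had 3843 of 24950 and 2961 of 24605. Imprinted genes without overlap went from 9 to 4. No share over all genes is given beside this count, so the fall cannot be read as particular to imprinted genes. At an adjusted p of 0.05 or less this setting called 9 genes in all by slope and 40 for 18M against 3M. Under it the slope of Trappc9 was 0.00276 log2 per month, and the log2 difference of 18M from 3M was 0.0126 for Grb10 and 0.18 for Trappc9, each of the opposite sign; the cause was not tested. Leaving out each library gave 6 to 11 genes by slope (15 to 27.5%, beside 10.8 to 16.7% of all genes) and 5 to 8 for 18M against 3M (12.5 to 20%, beside 7.31 to 12.9%) at an unadjusted p of 0.05 or less. It gave 11 to 16 without overlap (27.5 to 40%, beside 26.9 to 34% of all genes), an alternative chosen after seeing the data, in which 2 mice face 3. Over all genes, slope calls went from 13 to 114 without a library (114 without mouse 1 of 18M), and calls for 18M against 3M from 18 to 34. The adjusted p of the slope ranged over the alternatives from 8.62e-05 to 0.794 for Meg3, from 0.000101 to 0.217 for Igf2, from 0.0142 to 0.924 for Grb10 and from 0.0259 to 0.299 for Herc3. For 18M against 3M it ranged from 8.12e-12 to 0.455 for Igf2, and for the slope of the short H13 transcript from 1.81e-08 to 0.408. Mice of different ages share only a replicate number: over 18 pairs of the same number the correlation of deviations was -0.07 to 0.07, and 3 of 12 libraries correlated best with their own number. With the replicate block 0 imprinted genes and 0 transcripts were called, and 22 genes in all by slope, 0 for 18M against 3M and 16 for any difference; Pon3, outside the 47 genes, lost its call (adjusted p = 0.062). Of the 328 single values refitted, 161 gene slopes, 105 log2 differences and 45 transcript slopes kept direction and side of the threshold. A further 6 gene slopes, 5 log2 differences and 3 transcript slopes passed the threshold, and 1 gene slope and 2 log2 differences changed sign. No imprinted gene or transcript was called in the main tests, so keeping the side of the threshold meant staying uncalled.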
